A study of Ciona robusta with 12 samples.

Results

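In RNA sequencing of whole Ciona robusta embryos, 53 of 15284 gene models (0.347%) were set apart by the replicate number of the library rather than by its stage or treatment. A gene was counted here when the 4 libraries that carry the same replicate number all lay at least 4-fold above, or all at least 4-fold below, each of the other 8 libraries. The comparison was made on CPM + 0.25, where CPM is a gene's reads scaled to the library's total in the usual way, and every library of the high side had to reach 3 CPM. The genes were thus chosen by their CPM in these same 12 libraries, and those values are given as a description with no test. Tests are given only for the treatment, for the stage and for changes of the separation between stages or treatments.

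The 12 libraries form 4 groups of 3 replicates. From 32 cells on, embryos were kept in the MEK inhibitor U0126, labelled as 4 mM, or in its carrier DMSO at a dilution of 1 to 1000. Collection was at 64 or at 112 cells. All embryos were dechorionated, which means that the egg coat was removed, and were grown at 21 °C in artificial seawater. Each library pooled the RNA of 300 embryos, so a value is a mean over a pool, and fewer cells that hold a transcript cannot be told apart from less of it per cell. The replicates are called biological in the design text, but the labels do not say which adults, spawning or day stands behind a number. The p-values below rest on the spread between these libraries, which limma pools in part or in full over genes. The files name genes by KH identifiers with no gene names, and 0 of the 15284 identifiers matched the RefSeq gene table at hand, so no gene function is given.

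Ciona is a tunicate, a group close to the vertebrates. The adults are hermaphrodites that release eggs and sperm into the sea, and wild populations carry a high level of DNA sequence diversity. An early embryo holds RNA that the mother loaded into the egg beside RNA transcribed from its own genome, which becomes active during cleavage. MEK is the kinase that passes fibroblast growth factor signals on to ERK, and in ascidian embryos this pathway sets notochord and neural fates at cleavage stages. In a table of this kind, reads are credited to a gene only where they align to the reference gene model.

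The libraries held 10623872 to 15956670 reads, so that 3 reads, taken as the floor of detection, stood for 0.188 to 0.282 CPM. The 53 genes took 0.049% to 0.195% of the reads of a library. A pair of libraries departed from the others of their number. In DMSO replicate 3 at 112 cells, 7.02% of the 9811 genes with at least 3 CPM in at least 4 libraries were 2-fold or more below each of the other number 3 libraries, and 650 were 2-fold or more above them. U0126 replicate 3 at 112 cells had 0.826% of those genes 2-fold below, against at most 0.54% in each of the remaining libraries. Its 91 genes 2-fold above were no more than the 93 of U0126 replicate 1 and the 92 of DMSO replicate 2 at that stage. Results that rest on either library are given with and without it.

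Number 1 was high for 13 genes and low for 4, number 2 was high for 10 and low for 13, and number 3 was high for 9 and low for 4. The gap is the ratio of the lowest library on the high side to the highest library on the low side, on CPM + 0.25. Its median over the 53 genes was 7.56, with a range of 4.33 to 70.2, and 25 genes had a gap of at least 8-fold and 9 of at least 16-fold. Where the low side holds few reads, the added 0.25 CPM sets much of this ratio. With 1 CPM added in its place the gap of KH.C1.521 was 34.5 in place of 70.2, that of KH.S2734.1 31.6 in place of 68.3, that of KH.S1182.1 13.2 in place of 41.5 and that of KH.C9.734 2.73 in place of 4.33, and 40 of the 53 genes still met the rule. Within their own number the 4 libraries, which span both stages and both treatments, differed by a median of 1.71-fold from lowest to highest, with a range of 1.07 to 4.19. For the 21 genes low in a number this is the low side, where the added 0.25 CPM narrows the ratio. The 8 libraries of their high side, from both other numbers, differed by a median of 3.64-fold, with a range of 1.13 to 14.8. At 2-fold the same rule would take 140 genes, at 3-fold 74 and at 6-fold 41. Nearest above the threshold were KH.C9.734, with a gap of 4.33, and KH.S390.6, with 4.53. Nearest below it were KH.C3.428, at 3.88 with number 1 high, and KH.L15.3, at 3.72 with number 2 high, which is counted here through its low level in number 3.

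**Figure D1:**
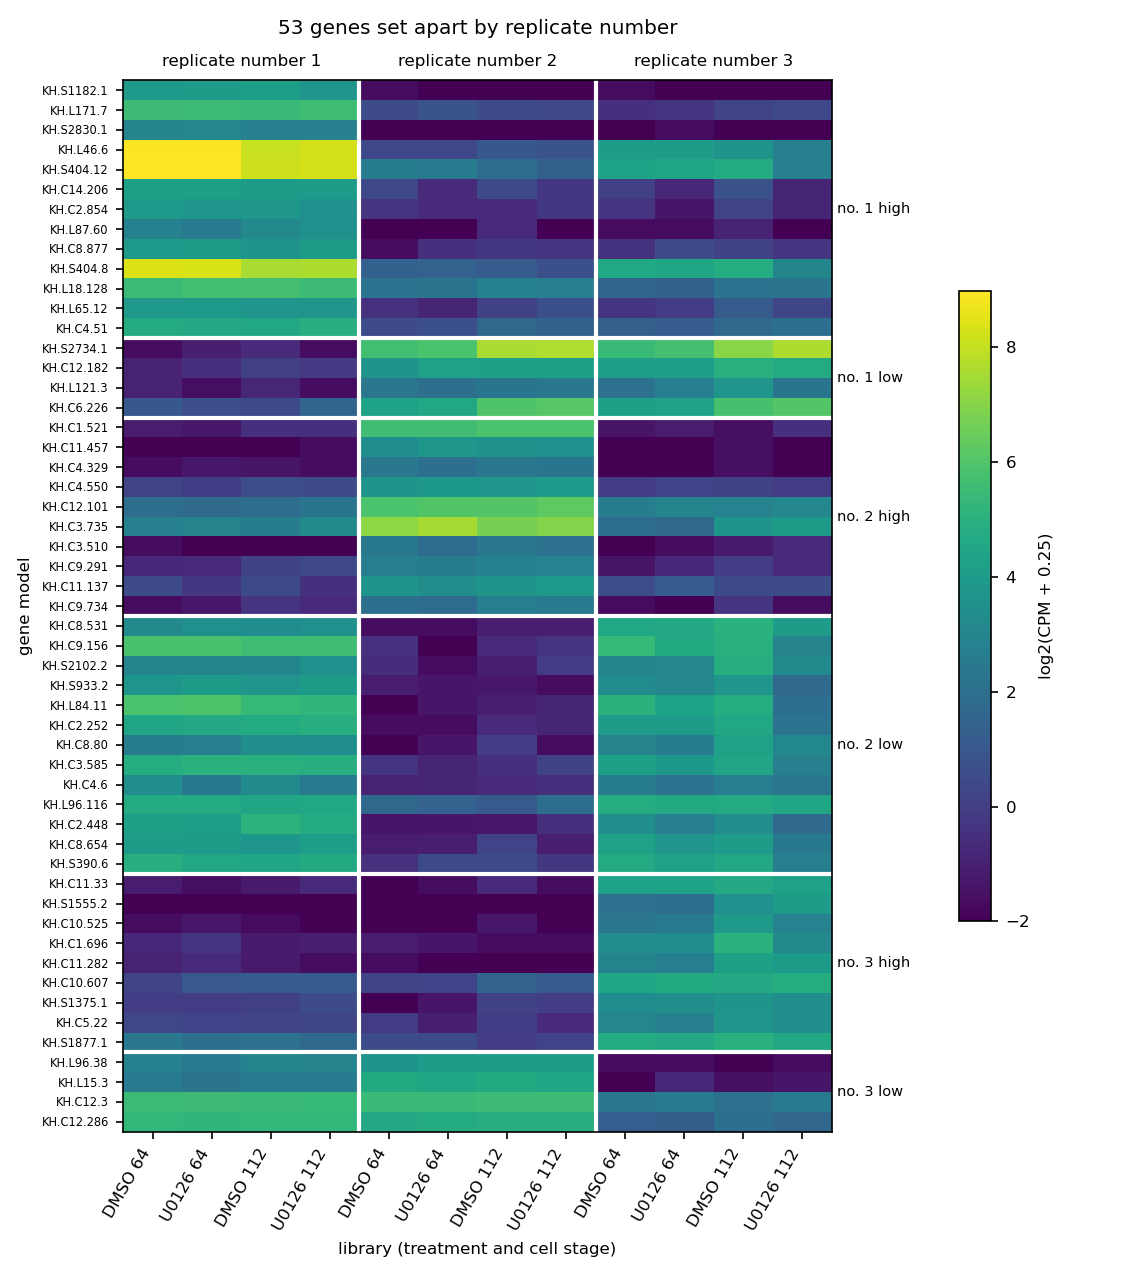
Level of the 53 genes (rows, by class) in the 12 libraries (columns, by replicate number), as log2(CPM + 0.25). In each class the 4 libraries of a number lie on one side of the other 8, at both stages and in both treatments.

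Low levels were often at or near the limit of detection. In 30 of the 53 genes every library of the low side was under 1 CPM, and in 9 none of them held more than 3 reads. Only KH.S1555.2, high in number 3, had no read in any of its 8 low libraries. It stood at 4.17 CPM in DMSO and 3.67 CPM in U0126 embryos at 64 cells and at 11.7 and 16.1 CPM at 112 cells, at least 15.9-fold above the floor of 3 reads per library. At the other end, 12 genes had more than 10 reads in every low library, so a low level there was a measured one.

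The genes high in number 1 included the highest levels of all 53. KH.S1182.1, with the widest gap of this class at 41.5, stood at 15.3 and 16.03 CPM at 64 cells and at 16.8 and 13.1 CPM at 112 cells, DMSO first. The other 8 libraries held 0 or 1 read of it each. KH.S404.12, with the highest level, stood at 496 and 505 CPM at 64 cells and at 283 and 309 CPM at 112 cells in number 1. It was at 2.33 to 5.92 CPM in number 2 and at 6.52 to 25.9 CPM in number 3.

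KH.S404.12 shared its order of levels with KH.S404.8 and KH.L46.6, the other genes of this class above 100 CPM. In each of the 4 groups, number 3 held 2.11% to 14.5% of the number 1 level and number 2 held 0.218% to 1.22% of it. KH.L46.6 stood at 266 to 483 CPM in number 1, at 6.67 to 16.4 CPM in number 3 and at 1.04 to 1.76 CPM in number 2. KH.S404.8 stood at 191 to 335 CPM, at 7.96 to 27.7 CPM and at 1.36 to 2.46 CPM in the same order. All 3 genes were therefore at distinct levels in all 3 numbers, with no overlap between libraries. By their identifiers KH.S404.8 and KH.S404.12 lie on the same assembled sequence. The number after the last point was taken as the order of gene models along it, which could not be checked without coordinates. Of the models numbered between them, KH.S404.10 had median levels of 19.3, 16.98 and 16.99 CPM in numbers 1, 2 and 3 and KH.S404.11 had 258, 211 and 268 CPM, while KH.S404.9 was under 1 CPM in each. The models so numbered that were above 1 CPM thus did not follow the separation.

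Among the 4 genes low in number 1, KH.S2734.1 had the widest gap, 68.3. It held 1, 3, 6 and 1 reads in the number 1 libraries, at 0.0681 CPM in DMSO and 0.23 CPM in U0126 embryos at 64 cells and at 0.376 and 0.0739 CPM at 112 cells. In number 2 it stood at 50.8 and 58.3 CPM at 64 cells and at 192 and 206 CPM at 112 cells. In number 3 it stood at 42.5 and 53.01 CPM at 64 cells and at 131 and 197 CPM at 112 cells. All libraries of numbers 2 and 3 were thus far above number 1, and in both numbers the 112-cell libraries were above the 64-cell ones. KH.C6.226 had the same order at lower contrast, at 1.13 to 2.74 CPM in number 1, at 18.7 to 22.9 CPM at 64 cells and 55.1 to 68.7 CPM at 112 cells in the other numbers.

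The 10 genes high in number 2 were led in gap by KH.C1.521, at 70.2. It stood at 49.2 CPM in both 64-cell libraries of number 2 and at 58.8 and 57.5 CPM in its 112-cell libraries, DMSO first. The other 8 libraries lay between 0.0941 and 0.455 CPM with a median of 0.208, which is at or near the floor of 3 reads. KH.C3.735, with the highest level of the class, stood at 139 and 179 CPM at 64 cells and at 105 and 124 CPM at 112 cells in number 2. It was at 5.83 to 9.02 CPM in number 1, while number 3 was below number 1 at 64 cells, with 3.67 and 2.89 CPM, and above it at 112 cells, with 12.6 and 15.6 CPM. The order of the low numbers thus differed between the stages for KH.C3.735.

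The 13 genes low in number 2 had their widest gap, 18.7, in KH.C8.531. It held 1, 1, 3 and 3 reads in number 2, against 8.72 to 11.1 CPM in number 1 and 16.2 to 32.3 CPM in number 3. KH.C9.156, with the highest level of the class, held 7, 0, 5 and 7 reads in number 2. It stood at 56.2 and 56.1 CPM at 64 cells and at 46.9 and 49.0 CPM at 112 cells in number 1. In number 3 it stood at 40.8, 25.0 and 31.2 CPM in 3 libraries and at 7.28 CPM in U0126 embryos at 112 cells.

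Number 3 was high for 9 genes, with the widest gap, 30.3, in KH.C11.33. It stood at 20.7 CPM in both 64-cell libraries of number 3 and at 24.7 and 18.9 CPM in its 112-cell libraries, DMSO first, against at most 5 reads, or 0.383 CPM, elsewhere. KH.S1877.1, with the highest level, stood at 24.5 to 31.5 CPM in number 3, at 3.03 to 4.97 CPM in number 1 and at 0.69 to 1.21 CPM in number 2. Among the 4 genes low in number 3, KH.L96.38 had the widest gap, 18.4. It held 0 or 1 read in each library of number 3, against 5.75 to 7.52 CPM in number 1 and 12.6 to 16.6 CPM in number 2. KH.C12.3, with the highest level of that class, stood at 4.14 to 5.71 CPM in number 3 and at 41.0 to 46.3 CPM in the other 8 libraries. Numbers 1 and 2 overlapped for KH.C12.3 and did not for KH.L96.38.

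**Figure D2:**
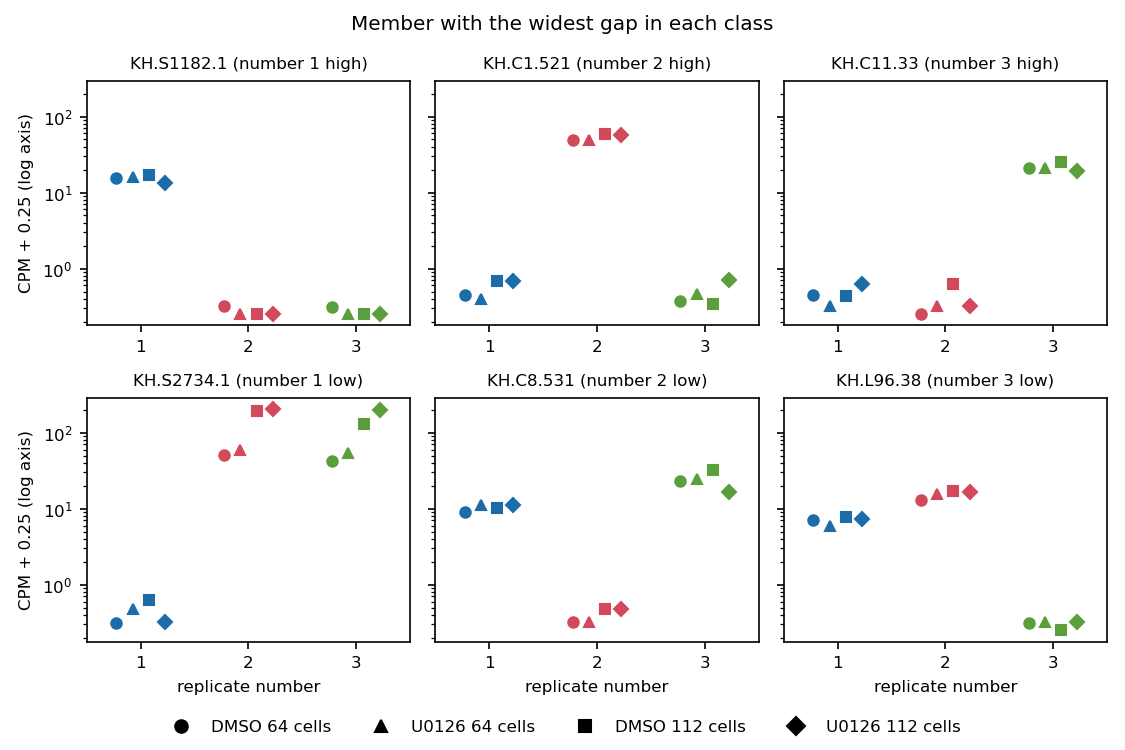
CPM + 0.25 on a log axis for the gene with the widest gap in each of the 6 classes, by replicate number, with a point for each library and symbols for its treatment and stage. In KH.S2734.1 the 112-cell libraries of numbers 2 and 3 lie above their 64-cell libraries, while number 1 is at 1 to 6 reads throughout.

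Most genes fell into a high and a low level, as the rule asks. The other pair of numbers did not overlap each other in 16 of the 53 genes, and in 4 of these they were at least 2-fold apart, while in 0 were they 4-fold apart. The 4 genes were KH.L46.6, KH.S404.8, KH.S1877.1 and KH.L15.3, named here after their values were seen. The same share over all genes was not counted. In the libraries of a single stage or treatment, 34.8% to 66.6% of all models had a number that did not overlap the others. The count of 16 is therefore not read as a trait of these genes. KH.L15.3 was at 0 to 0.353 CPM in number 3, at 4.45 to 5.65 CPM in number 1 and at 21.7 to 25.5 CPM in number 2.

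The genes were spread over 31 assembled sequences by their identifiers, including 12 of the 14 of the C type. The labels do not say what the types of identifier, C, L and S, stand for. Identifiers of the S type made up 11 of the 53 genes (20.8%), beside 11.8% of all models. They made up 9.14% of the 9811 genes with at least 3 CPM in at least 4 libraries. Those of the C type made up 60.4%, beside 68.7% of all models, and those of the L type made up 18.9%, beside 19.5%. No gene of the set was next to another by identifier number, beside 0.582% of all models that were next to a gene of the set. The order by number may differ from the order on the sequence. At so small a share, none among 53 genes is not read as a trait of the set. Only KH.S404.8 and KH.S404.12 had another within 5 by number (3.77%), beside 2.68% of all models that had a gene of the set that near by number.

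Because the rule uses all 12 libraries, it was also applied to the libraries of a single stage or treatment and read in those it did not use. At 64 cells alone it took 111 genes (0.726% of all models), and 61 of them (55.0%) met the same rule for the same number and direction at 112 cells, where 0.55% of all models met it. Of the 111 genes, 97 were at least 2-fold apart in the same direction at 112 cells, 108 did not overlap and 0 lay in the opposite direction. A number that did not overlap the others was common, at 43.9% of all models at 112 cells and 66.6% at 64 cells. Chosen at 112 cells, 84 genes gave the same 61 (72.6%) at 64 cells. Chosen in DMSO libraries, 79 genes gave 54 (68.4%) that met the rule in U0126 libraries, where 0.497% of all models did. Chosen in U0126 libraries, 76 genes gave 54 (71.1%) in DMSO libraries, where 0.517% of all models did. Without overlap in the libraries not used were 78 of the 79, where 42.3% of all models did not overlap, and 76 of the 76, where 34.8% did not. A gene that meets the rule in all 12 libraries also meets it in each part, so the 53 genes are necessarily within the 61 and the 54. These shares are therefore no separate support for them. The libraries on either side of such a split carry the same replicate numbers, so this describes how far a number's level was kept within it, not a new set of embryos.

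The rule asks for 4-fold in the same direction at both stages and in both treatments. A likeness between them is thus built in, and only the amount of change is described and then tested. The difference between a gene's own number and the mean of the others, on log2(CPM + 0.25), ranged in size from 2.88 to 8.64 over the 53 genes and 2 stages. It differed between 64 and 112 cells by a median of 0.44, by less than 1 in 42 genes and by at least 1 in 11. Between DMSO and U0126 it differed by a median of 0.22 and by less than 1 in 50 genes. The differences between stages were widest in KH.S1555.2, at 4.06 at 64 and 5.80 at 112 cells, KH.C11.282, at 4.15 and 5.83, and KH.L84.11, at -6.97 and -5.31, followed by KH.S2734.1, at -7.03 and -8.64, and KH.C3.735, at 4.97 and 3.46.

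**Figure D3:**
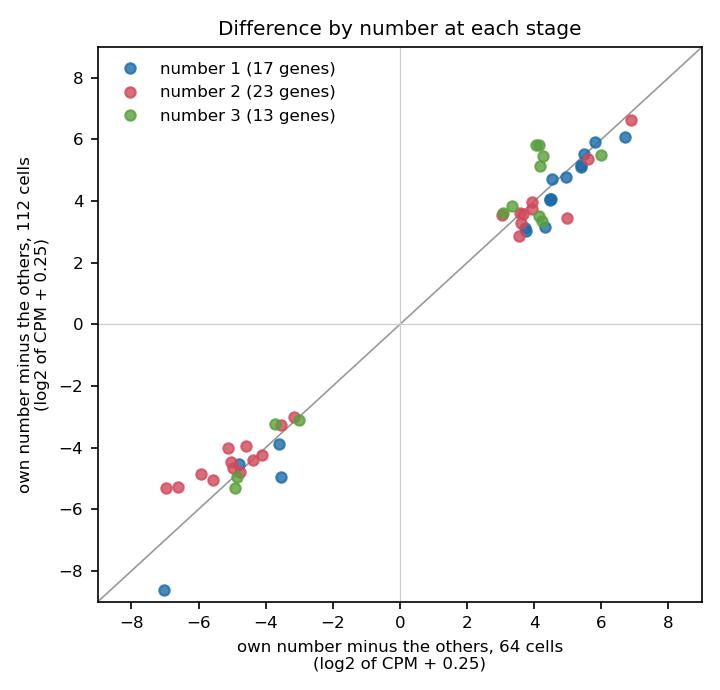
Difference between a gene's own replicate number and the mean of the other numbers, on log2(CPM + 0.25), at 64 cells (x axis) against 112 cells (y axis), with a point for each of the 53 genes. For 42 of the 53 genes the difference between the stages is under 1.

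The change of this difference was tested over all 11650 genes that passed the filter on low values, with limma on log2(normalized value + 1). Between stages, the DMSO and U0126 libraries of a number served as its replicates, with 4 residual degrees of freedom. The spread in this test is thus how far the U0126 effect varied between numbers. It does not measure the spread between separate pools of embryos of the same number, stage and treatment. Genes that lost their separation at a stage were kept out by the rule, so 0 calls do not show that it was stable. Between stages 0 of the 53 genes passed an adjusted p of 0.05 in the contrast of their own number, and 0% of all genes did. Of the 53, 11 had an unadjusted p under 0.05. The median size of the fitted change was 0.51 over the 53 genes, beside 0.22, 0.17 and 0.30 over all genes for numbers 1, 2 and 3. By number these were 2 of 17 genes (11.8%) for number 1, 4 of 23 (17.4%) for number 2 and 5 of 13 (38.5%) for number 3, beside 3.36%, 3.79% and 9.11% of all genes. With edgeR's quasi-likelihood test 0 were called and 10 had an unadjusted p under 0.05. Without U0126 replicate 3 at 112 cells 14 of the 53 were called, and without DMSO replicate 3 at 112 cells 6 were. In the first of these fits 38% of all genes were called for number 1, 24.3% for number 2 and 51.1% for number 3, and in the second 0.529%, 1.3% and 0.425%.

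Between treatments 0 of the 53 genes were called by limma, beside 0% of all genes, and 3 had an unadjusted p under 0.05. The same limits hold here, with the spread taken from how far the stage change varied between numbers. These were 2 of 17 (11.8%) for number 1, 0 of 23 for number 2 and 1 of 13 (7.69%) for number 3, beside 0.807%, 0.781% and 1.48% of all genes. EdgeR called 0 of them, with 2 at an unadjusted p under 0.05, beside 0.00858% of all genes for number 3. Without DMSO replicate 3 at 64 cells 7 were called by limma, of numbers 1 and 3, where 19.7% and 38.5% of all genes were called. The smallest and largest fitted changes of the difference between treatments were -1.14 and 1.79 on the log2 scale, and between stages -1.54 and 2.33.

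In U0126 replicate 3 at 112 cells many of the genes low in number 2 stood below the other number 3 libraries. There 7 of the 13 were 2-fold or more below each of the other 3 libraries of number 3, beside 0.826% of the 9811 expressed genes, while in DMSO replicate 3 at 112 cells 0 of the 13 were, beside 7.02%. These 7 still lay above number 2 in this library, but the rule asks that of every number 3 library, so it is no finding. KH.L84.11 stood at 33.2, 20.4 and 27.6 CPM in the other libraries of number 3 and at 3.79 CPM in this one, or 13.7% of their median, beside 37.2 to 59.7 CPM in number 1 and at most 0.301 CPM in number 2. KH.C2.252 stood at 16.7, 16.1 and 23.1 CPM and at 4.24 CPM in this one, or 25.4% of their median.

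The 13 genes did not all share this. Under 40% of the median of the other number 3 libraries were 8 genes, from KH.L84.11 at 13.7% to KH.C3.585 at 36.2%. The other 5 were KH.C8.531 at 67.3%, KH.C4.6 at 82.1%, KH.L96.116 at 85.7%, KH.S2102.2 at 111% and KH.C8.80 at 119%. Among the genes high in number 1, 2 of 13 (15.4%) were also 2-fold below the other number 3 libraries there. Of the 9 genes high in number 3, 0 were, at a median difference of 0.17 on the log2 scale from the other number 3 libraries. Of the 10 genes high in number 2, 0 were, at a median difference of 0.06. The same count of 0 held for the 4 genes low in number 1, at 1.13, and the 4 low in number 3, at 0.22.

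**Figure D4:**
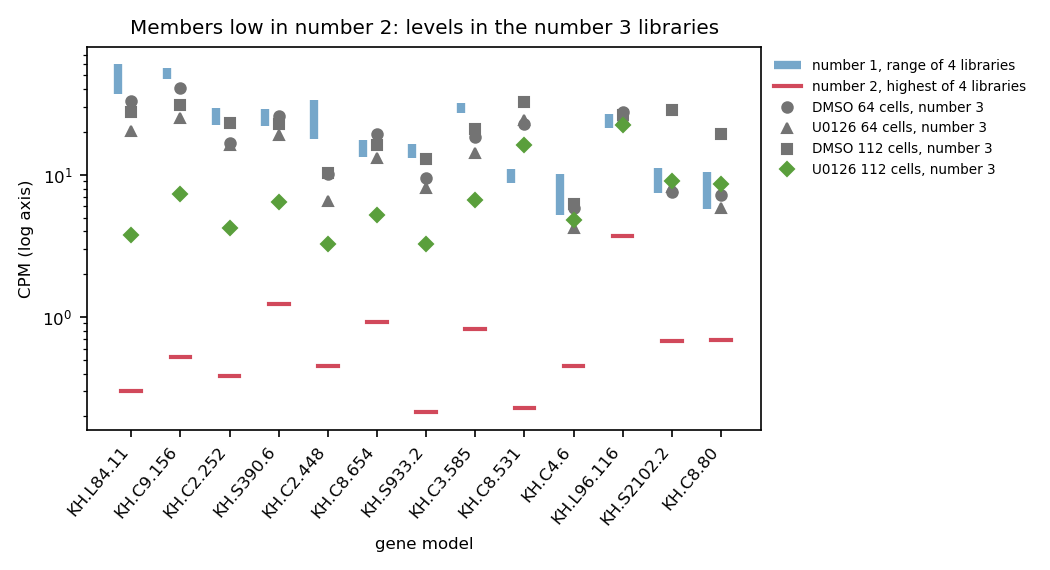
CPM on a log axis of the 13 genes low in number 2, with the libraries of number 3 as points, U0126 at 112 cells marked, the range of number 1 as a bar and the highest library of number 2 as a line. For 8 genes the marked library lies under 40% of the median of the other number 3 libraries and for 5 it lies between 67.3% and 119%.

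Without U0126 replicate 3 at 112 cells the rule took 68 entries in place of 53, and all 15 added ones were low in number 2, which rose from 13 to 28. They comprised 13 further genes and, a second time, KH.L46.6 and KH.S404.8. As the 13 further genes enter only when this library is left out, their low level in it, at 7.82% to 43.4% of the median of the other number 3 libraries, follows from that choice and adds nothing to the pattern above. KH.S854.4, which had the widest gap among the 13 without the library, at 29.8, stood at 7.19 to 16.7 CPM in the other number 3 libraries, at 1.97 CPM in this one and at 0 CPM in all of number 2. What stands behind the lower level in this library was not tested.

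The tests of U0126 and of the stage were made without and with the replicate number in the fit. Without it, the spread between replicates of these genes is the very separation that chose them, so that 0 calls were to be foreseen and say nothing of whether a gene changed. For U0126 at 64 cells 38 genes passed the filter of 10 normalized reads in 3 libraries and limma, edgeR and DESeq2 each called 0, with 0 at an unadjusted p under 0.05, beside 0.0185%, 0.00927% and 0.158% of the 10792 genes tested. At 112 cells 39 passed and the same tools each called 0, with 0 at that level, beside 0.734%, 0.725% and 1.94% of 11315 genes. For the stage change all 53 passed and each tool called 0, with 0 at that level. Of 11650 genes, limma, edgeR and DESeq2 called 7.59%, 7.53% and 11.1% with DMSO. With U0126 they called 6.79%, 6.51% and 9.06%. The median fitted change of the set, on the log2(normalized value + 1) scale, was 0.05 and -0.12 for U0126 at 64 and 112 cells, beside 0.01 and -0.004 over all genes tested. For the stage it was 0.33 in DMSO and 0.21 in U0126 embryos, beside 0.005 and -0.006.

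With the replicate number as a block, limma called 3 of 38 genes at 64 cells (7.89%), beside 1.35% of all genes tested. This fit left 2 residual degrees of freedom and an infinite prior. Each SE therefore came from the variance trend over all genes, and its adjusted p-values do not measure a gene's own spread between replicates. KH.C9.156 was lower with U0126 by 1.22 on the log2 scale, at -1.22 (SE 0.144, adjusted p = 9.25e-15), with adjusted p from 9.25e-15 to 1 over the alternatives. The size of this value turned on number 2, where 7 reads in DMSO stood against 0 in U0126, while number 1 was at 56.2 and 56.1 CPM and number 3 at 40.8 and 25.0 CPM. With the edgeR block test the log2 change was -0.34 and was not called (adjusted p = 0.0553). With limma's block fit without number 2 it was also -0.34 and was called (adjusted p = 0.0128). KH.C8.877, high in number 1, was higher by 1.06 (SE 0.294, adjusted p = 0.0256, range 0.0256 to 1), and its number 2 libraries held 1 read in DMSO and 6 in U0126. Without number 2 it was 0.63 (limma, adjusted p = 0.268), and the edgeR block test gave 0.28 (adjusted p = 0.737). KH.S2734.1 was higher by 0.58 (SE 0.136, adjusted p = 0.0023, range 0.0023 to 1), with 1 against 3 reads in number 1, 50.8 against 58.3 CPM in number 2 and 42.5 against 53.01 CPM in number 3. Without number 1 it was 0.32 (limma, adjusted p = 0.153), and the edgeR block test gave 0.31 (adjusted p = 0.0918). EdgeR with the block called 1 of 38, beside 1.22% of all genes. That gene was KH.C4.6, lower by 0.70 (log2 change -0.70, adjusted p = 0.0346, range 0.0346 to 1), at 10.2 against 5.22 CPM in number 1 and 5.81 against 4.23 CPM in number 3. The limma block fit called 0 of the 19 genes tested without number 1, beside 1.08% of all genes, and 0 of 20 without number 3, beside 0.689%. Without number 2 it called 4 of 32 (12.5%), all lower with U0126, beside 1.51%.

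At 112 cells the block fit called 0 of 39 genes, beside 0.433% of all genes, with 3 at an unadjusted p under 0.05, beside 7.34%, and the edgeR block test called 0, with 2, beside 0.477% of all genes. Without DMSO replicate 3 at 112 cells it called 6 of 38 (15.8%), beside 11.3% of all genes, and without U0126 replicate 3 at 112 cells 5 of 39 (12.8%), beside 11.4%. Without number 3 it called 3 of 26 (11.5%), beside 11.1%. These fits left 1 residual degree of freedom. Where 1 library of number 3 is left, its own block term fits it in full. All of these fits thus take the U0126 effect from the same libraries of numbers 1 and 2. Calls shared between them are the same result again. KH.C3.735, KH.C6.226, KH.C8.80, KH.L96.116 and KH.S2102.2 were called in both fits without a library, and KH.S2734.1 in the first, all named here after their values were seen.

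With the block, 4 of 53 genes (7.55%) rose and 0 fell in DMSO embryos, while of all genes 17.5% were called, 9.9% higher and 7.57% lower. KH.C8.80 rose by 1.82 (SE 0.454, adjusted p = 0.0236, range 0.00585 to 0.952 over the alternatives), with 0 against 9 reads in number 2. Without number 2 it was 1.06 (limma, adjusted p = 0.091), and the edgeR block test gave 1.23 (adjusted p = 0.0359). KH.S2734.1 rose by 1.70 (SE 0.487, adjusted p = 0.0415, range 0.00109 to 0.99). KH.C9.734 rose by 1.65 (adjusted p = 0.0357, range 0.0217 to 0.892), with 1 against 9 reads in number 1 and 1 against 6 in number 3, and the edgeR block test gave 1.23 and did not call it (adjusted p = 0.103). KH.C12.182 rose by 0.87 (adjusted p = 0.0228, range 0.0103 to 0.995). KH.S2734.1 was higher at 112 than at 64 cells in all 3 numbers of DMSO embryos, from 0.0681 to 0.376 CPM in number 1, from 50.8 to 192 CPM in number 2 and from 42.5 to 131 CPM in number 3. The edgeR block test called 4, beside 17.6% of all genes, of which KH.C6.226 was not among those of limma. Without DMSO replicate 3 at 112 cells limma called 7 (13.2%), with 5 higher and 2 lower, beside 26.7% of all genes. It called 2 of 48 without number 1, beside 5.99%, 0 of 47 without number 2, beside 4.52%, and 8 of 48 without number 3, beside 21.2%.

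In U0126 embryos the block fit called 3 of 53 genes (5.66%), beside 15.1% of all genes. KH.S404.12 fell by 1.12 (log2 change -1.12, SE 0.273, adjusted p = 0.0233, range 4.03e-05 to 0.998) and KH.S404.8 fell by 0.94 (log2 change -0.94, adjusted p = 0.0264, range 0.000163 to 0.998), both of them high in number 1. KH.S404.12 went from 505 to 309 CPM in number 1, from 5.29 to 2.33 CPM in number 2 and from 21.6 to 6.52 CPM in number 3. KH.C6.226 rose by 1.52 (SE 0.350, adjusted p = 0.0177, range 0.000565 to 0.998), from 22.9 to 68.7 CPM in number 2 and from 19.6 to 65.6 CPM in number 3. Without U0126 replicate 3 at 112 cells 0 of the 53 were called, beside 8.91% of all genes, at log2 changes of 1.42 for KH.C6.226 (adjusted p = 0.0837), -0.80 for KH.S404.12 and -0.64 for KH.S404.8 (both adjusted p = 0.0954). Without DMSO replicate 3 at 112 cells 8 were called, beside 35.9%. Without number 1 limma called 2 of 48, beside 4.6%, without number 2 it called 0 of 47, beside 5.27%, and without number 3 it called 7 of 48, beside 22.9%. The edgeR block test called 5, beside 14.5% of all genes. Whether the stage change of KH.S404.12 differed between treatments was not tested.

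**Figure D5:**
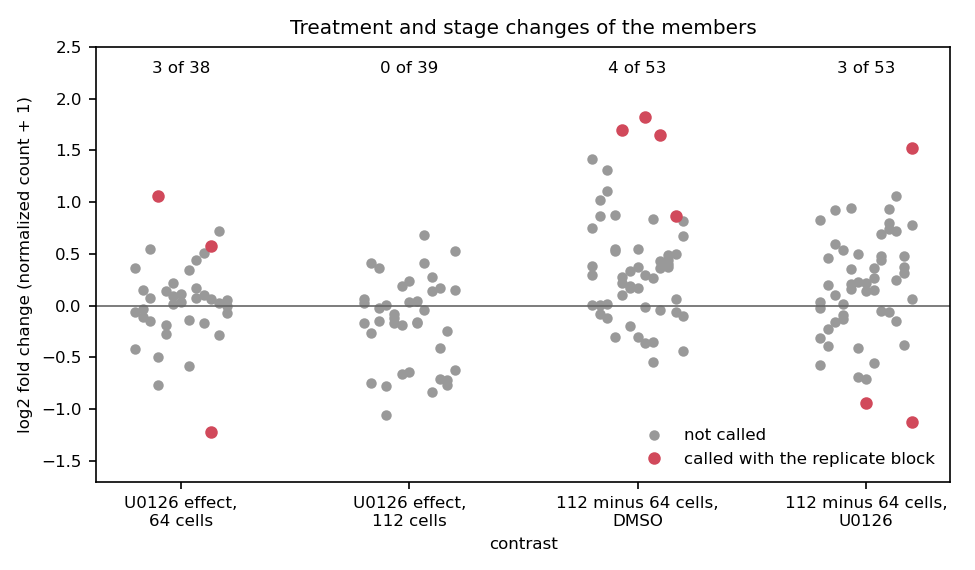
Fitted log2 change with the replicate block for those of the 53 genes that passed the filter in each of the 4 contrasts (U0126 against DMSO at 64 and at 112 cells, 112 against 64 cells in DMSO and in U0126 embryos), with the genes that passed an adjusted p of 0.05 marked. The marked genes number 3 of 38, 0 of 39, 4 of 53 and 3 of 53.

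The authors' regularised log2 values, deposited beside the normalized counts, kept the order but not the size of the separation. All 53 genes stayed without overlap between the number and the other libraries in both tables. As these values come from the same counts that chose the genes, this was to be foreseen and adds no support. On CPM a number did not overlap the others in 66.6% of all models at 64 cells and in 43.9% at 112 cells. The median difference between high and low side was 0.836 at 64 cells and 1.85 at 112 cells on that scale, against 4.46 and 4.39 on log2(CPM + 0.25). A gap of at least 2 on the regularised scale was held by 4 genes at 64 cells and by 11 at 112 cells. For KH.S1182.1 the difference was 0.92 at 64 and 2.37 at 112 cells, against 5.82 and 5.91 on log2(CPM + 0.25). The scale therefore sets how large the separation appears, and at which stage it appears larger.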

How the data were processed

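RNA was measured in 12 libraries of whole embryos. The deposited tables, 1 for each stage, hold 2 kinds of values for 15284 gene models. The first is a signal, counts divided by a size factor, per the file headers. The second is regularised log2 values, per the file headers. The submitters' processing notes name TopHat2 2.9.8b and DESeq 1.8.1, and no genome build or read counter is stated in them. Whole reads were recovered by dividing each column by its smallest value above 0 (all within 0.01 of whole numbers), and CPM was taken on column totals. As the values were normalized counts and not raw ones, limma 3.58.1 on log2(value + 1) with a variance trend was the main test and edgeR 4.0.16 and DESeq2 1.42.0 on recovered reads were alternatives. Genes with at least 10 in at least 3 libraries of a fit were kept, and p-values were adjusted by Benjamini-Hochberg over all of them. U0126 effects used the 6 libraries of a stage. Stage changes used all 12, rescaled together by median of ratios because the tables were normalized separately. The fits were tested on simulated data with replicate-number effects far smaller than those of these genes, so that test does not cover genes of this kind.

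The genes and lists were chosen with earlier results of these data known. Named genes are, in each class, the one with the widest gap and the one with the highest level, those nearest the threshold, and those called with the block. Marker and pathway lists by gene name could not be counted, since identifiers carry no names, so tissue identity was not checked. Replicate numbers pair libraries: deviations from group means over 11617 genes correlated at 0.449 to 0.834 within a stage and 0.382 to 0.792 across stages for the same number, and at -0.529 to -0.034 for different numbers. As deviations are taken from group means, positive values for the same number bring negative ones between numbers with them. The negative values are therefore no further sign of pairing. Without the 53 genes the same-number values were 0.405 to 0.807 and 0.33 to 0.758. Intervals and floors of 3 reads cover counting error only. Alternatives were the replicate block, other pseudocounts (0.5 and 8), no filter and leaving out each library. Blocked fits without a number or a library, and the rule on a single stage or treatment, were added after seeing the data.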

Additional observations from a re-analysis of the deposited data

How the results depend on the processing

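The 53 genes were all kept under joint median-of-ratios scaling (53) and when any library was left out (53 to 68), but 40 of them were kept with 1 CPM added in place of 0.25. The rule took 78 genes at a minimum of 1 CPM, 140 genes at 2-fold, 25 at 8-fold, 26 at a minimum of 10 CPM, 111 on 64-cell and 84 on 112-cell libraries alone. Calls without the block were 0 in all 4 contrasts, also when any library was left out, which the choice of the genes foretells and which is no sign of stability. With the block limma called 3 (edgeR 1) for U0126 at 64 cells, 4 (4) for the stage in DMSO and 3 (5) in U0126 embryos, and it changed no other call. Leaving out a number or a replicate 3 library at 112 cells, blocked counts ran from 0 to 4 and from 0 to 6 for U0126 at 64 and 112 cells and from 0 to 8 for either stage change. Changes of the separation gave 0 to 14 calls between stages and 0 to 7 between treatments. Without the block, leaving out a library unbalances the numbers, and the log2 change took both signs in 38 of 38 and 39 of 39 genes for U0126 at 64 and 112 cells and in 51 and 52 of 53 for the stage in DMSO and U0126 embryos. Of the named changes, 11 values turned sign. For U0126 at 64 cells KH.C9.156 ran from -3.36 to 1.798, KH.S2734.1 from -2.22 to 3.12 and KH.C8.877 from -0.40 to 2.09. For the stage in DMSO embryos KH.S2734.1 ran from -1.09 to 4.49 and KH.C8.80 from -0.32 to 3.21. For the stage in U0126 embryos KH.S404.12 ran from -3.21 to 0.69 and KH.S404.8 from -2.89 to 0.85. Low sides at or under 3 reads limit the log2 changes of those genes.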
